A study of Homo sapiens with 12 samples.

Results

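The genes described here are the chromatin proteins HMGA1 and HMGA2, the let-7 inhibitor LIN28B, the mRNA-binding proteins IGF2BP1, IGF2BP2 and IGF2BP3, and the transcription factor MYC. They were taken by gene name from the deposited count table, which gave 7 of its 58735 genes. The set was chosen by measured values of HMGA2 in these libraries, which were lower with CCNE1 than in control and higher with both TMLHE hairpins than with CCNE1. Its values in those comparisons are therefore given as a description, with no test. RNA was sequenced from Ovcar8, a long-used cell line of high-grade serous ovarian carcinoma, in 12 libraries that formed 4 groups of 3. These were CCNE1 overexpression with the hairpin shTMLHE 1, CCNE1 overexpression with the hairpin shTMLHE 2, CCNE1 overexpression alone, and control. CCNE1 encodes cyclin E1, an activator of CDK2 at the start of S phase, and TMLHE encodes the first enzyme of carnitine synthesis. Cells of every group were transduced with lentivirus, selected with 3 ug/ml puromycin for 2 to 3 days, and grown in RPMI-1640 with 5% FBS. Below, shTMLHE 1 and shTMLHE 2 name the groups that carry CCNE1 overexpression as well as the hairpin. The labels name no further hairpin group as a control for the hairpins, and do not say that the 3 libraries of a group came from separate cultures.

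The let-7 microRNAs are a family that represses growth-promoting and fetal mRNAs in differentiated tissue. LIN28B and its paralog LIN28A bind let-7 precursors and prevent their maturation. LIN28B, HMGA2 and IGF2BP1 are themselves classic let-7 targets, and are high in the embryo and low in most adult tissue. HMGA1 and HMGA2 bend AT-rich DNA through AT-hooks, and the IGF2BP proteins bind mRNAs, MYC among them, and slow their decay. Re-expression of HMGA2, LIN28B or the IGF2BP genes is a known feature of ovarian and other carcinomas.

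The let-7 sequences are shown because their shared seed defines the matches discussed next. Mature sequences were taken from RefSeq (GRCh38.p14), in which the 9 mature names of the let-7 family, from 12 loci, carry the same seed. Other human miRNAs with that seed are not shown. Capitals mark bases 2 to 8, the seed.
let-7a-5p: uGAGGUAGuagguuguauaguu
let-7b-5p: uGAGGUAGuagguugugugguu
let-7c-5p: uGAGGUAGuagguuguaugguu
let-7d-5p: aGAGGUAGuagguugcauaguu
let-7e-5p: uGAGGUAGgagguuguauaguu
let-7f-5p: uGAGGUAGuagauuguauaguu
let-7g-5p: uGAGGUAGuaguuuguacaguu
let-7i-5p: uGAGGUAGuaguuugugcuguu
miR-98-5p: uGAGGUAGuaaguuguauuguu

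The members differ in how many matches to this seed their mRNAs hold. The letters CTACCTC were searched on the sense strand of the 3′ UTR of 1 principal transcript per gene in GENCODE 29 (GRCh38), with no other motif searched. HMGA2, LIN28B and IGF2BP1 had 4 matches each, HMGA1, IGF2BP2 and IGF2BP3 had 1 each, and MYC had 0. Of 13057 tested genes with an annotated 3′ UTR, 9.91% had at least 1 match, and 11 genes (0.0842%) had 4 or more. UTR length goes with this count. The members' UTRs were 3003 bases in HMGA2, 4549 in LIN28B and 6206 in IGF2BP1, against 476 in MYC and a median of 1099 over the tested genes. An adenine just after the match marks a stronger site in textbook models. It followed 3 of the 4 matches in IGF2BP1 and 1 of the 4 in HMGA2. The HMGA2 transcript with the longest annotated 3′ UTR (7421 bases), used by another isoform, had 0 matches, and counts per gene do not separate isoforms. A match is a run of letters, and let-7 levels were not analysed here. The matches of the 5 genes with both a match and a tested level are printed below, with the seed match in capitals, on the strand of the gene.
HMGA2 match 1 (chr12:65963299-65963320, plus strand): ccaacgttcgatttCTACCTCa
HMGA2 match 2 (chr12:65964534-65964555, plus strand): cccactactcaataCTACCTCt
HMGA2 match 3 (chr12:65964946-65964967, plus strand): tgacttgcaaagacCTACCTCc
HMGA2 match 4 (chr12:65965799-65965820, plus strand): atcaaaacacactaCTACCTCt
IGF2BP1 match 1 (chr17:49051062-49051083, plus strand): gtgtgcgaagtaaaCTACCTCa
IGF2BP1 match 2 (chr17:49053699-49053720, plus strand): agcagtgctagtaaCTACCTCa
IGF2BP1 match 3 (chr17:49054353-49054374, plus strand): tataaatggattaaCTACCTCa
IGF2BP1 match 4 (chr17:49054998-49055019, plus strand): cacttttgttttatCTACCTCt
HMGA1 match (chr6:34245830-34245851, plus strand): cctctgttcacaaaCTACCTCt
IGF2BP2 match (chr3:185644220-185644241, minus strand): acacacagaagaagCTACCTCa
IGF2BP3 match (chr7:23311795-23311816, minus strand): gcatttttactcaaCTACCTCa

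**Figure D1:**
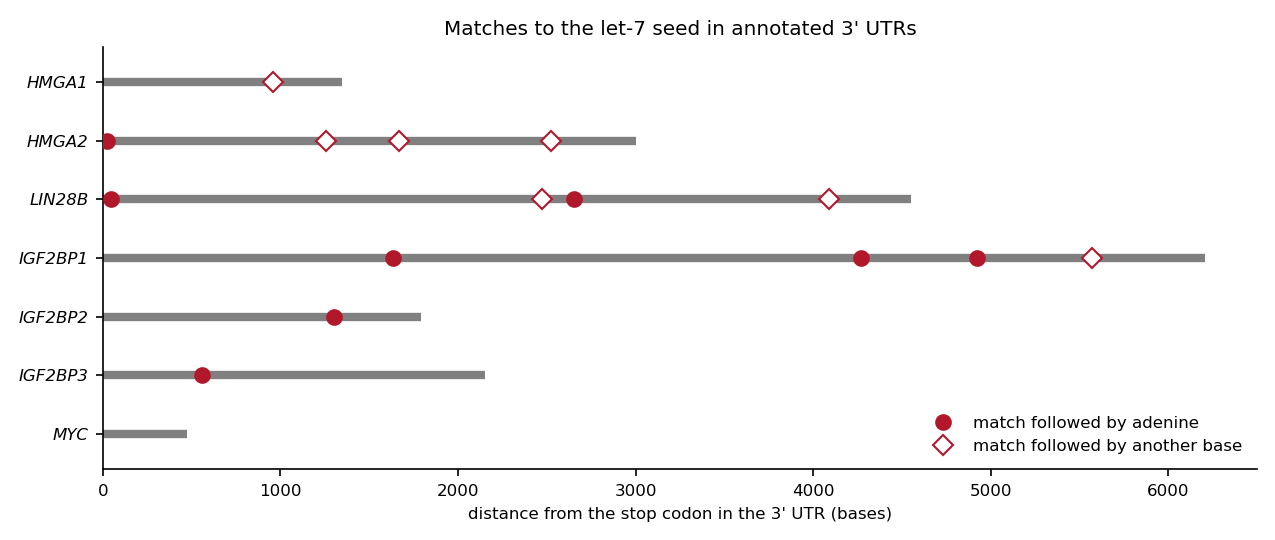
Position of each match to the let-7 seed along the 3′ UTR of the principal transcript of the 7 genes, in bases from the stop codon. Grey bars are the UTRs, filled circles are matches followed by an adenine and open diamonds are the other matches; HMGA2, LIN28B and IGF2BP1 hold 4 each and MYC holds 0.

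Levels are given as counts and as TMM-scaled CPM, counts per unit of library size after each library's total is multiplied by a factor that centres most genes. Libraries held 14054101 to 21457503 counts. TMM factors were 1.11 to 1.12 in shTMLHE 1, 1.22 to 1.23 in shTMLHE 2, 0.847 to 0.853 in CCNE1 and 0.860 to 0.864 in control. With total counts alone, the median log2 fold change of all genes moved by 0.39 for shTMLHE 1 and by 0.53 for shTMLHE 2 against CCNE1, so comparisons of the members with the hairpins are also given on that scale where it changes a direction. CCNE1 itself had 1269 ± 49.0 CPM in shTMLHE 1, 847 ± 21.2 CPM in shTMLHE 2, 1001 ± 34.0 CPM in CCNE1 and 33.1 ± 1.28 CPM in control (SD, n = 3 each), and TMLHE had 0.956 ± 0.286, 0.482 ± 0.241, 15.7 ± 2.69 and 16.5 ± 1.62 CPM in the same groups. On total counts CCNE1 had 1036.5 CPM in shTMLHE 2 and 849.7 CPM in CCNE1, the other order. Of 14 serous ovarian markers, 11 to 12 had a count in each group, with MUC16 and MECOM at 0 in every library. As group means, 7 of them reached 1 CPM in each hairpin group, and 9 in CCNE1 and in control. Summed leukocyte markers stayed at 0.801 to 2.90 CPM, and endothelial markers at 0.911 to 3.30 CPM. A list of 6 fibroblast markers, 2 of which reached 1 CPM, summed to 1535 to 1628 CPM in shTMLHE 1 and 1257 to 1297 in shTMLHE 2. The sum was 611 to 640.1 CPM in CCNE1 and 900.2 to 967 in control. Of the 6, 5 had a count in each hairpin group and 3 in CCNE1 and in control, while DCN was at 0 in every library. The part of these markers in the results was not tested. In bulk RNA, fewer cells with a transcript and less of it per cell cannot be told apart.

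The 7 genes spanned the whole range of expression. Per kilobase of exon, HMGA1 stood at 1092 ± 22.2 CPM in shTMLHE 1, 735 ± 3.28 in shTMLHE 2, 2397 ± 42.8 in CCNE1 and 2211 ± 41.1 in control, which placed it 28th, 35th, 26th and 28th among the 58735 genes. MYC followed at 38.3 to 60.5 CPM per kilobase as group means, then IGF2BP2 at 9.46 to 27.6 and IGF2BP1, with a lowest group mean of 7.03. HMGA2 at 0.0261 to 0.333 and IGF2BP3 at 0.0368 to 0.223 CPM per kilobase were barely detected, and LIN28B was close to absent. MYC exceeded both IGF2BP1 and IGF2BP2 per kilobase in every group. IGF2BP2 exceeded IGF2BP1 in every group but shTMLHE 2, where IGF2BP1 stood at 13.5 ± 0.420 and IGF2BP2 at 9.46 ± 0.936 CPM per kilobase. The libraries of HMGA2 and IGF2BP3 overlapped per kilobase in control, while HMGA2 was the higher in both hairpin groups and IGF2BP3 the higher in CCNE1. Exon length here counts the exons of all isoforms of a gene, so levels per kilobase depend on the annotation.

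**Figure D2:**
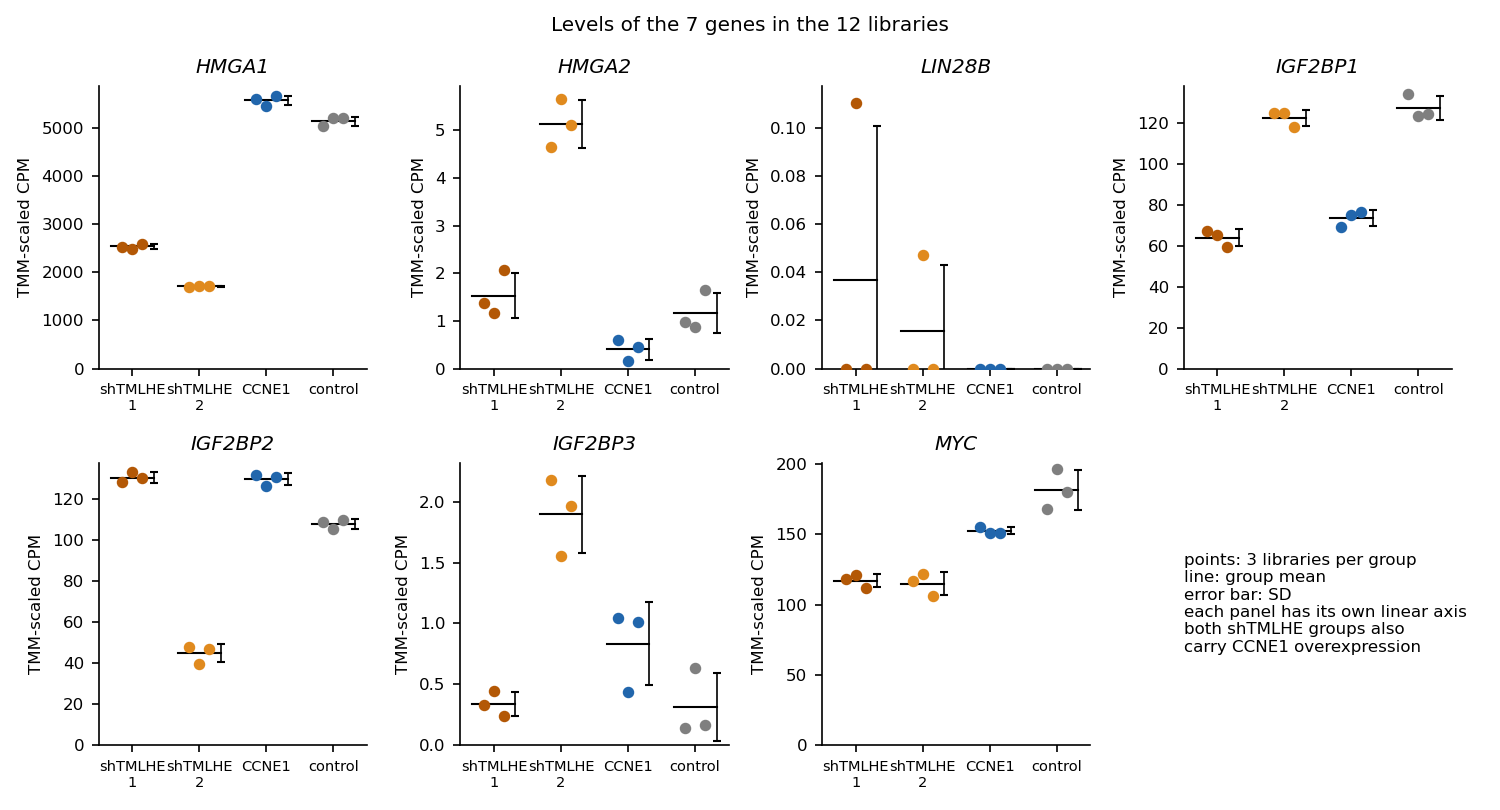
TMM-scaled CPM of the 7 genes in each library, on linear axes that differ between panels, with points for libraries, lines for group means and error bars for the SD (n = 3). HMGA2 was highest in shTMLHE 2 (4.64 to 5.65 CPM) and lowest in CCNE1 (0.165 to 0.597 CPM), while HMGA1 was highest in CCNE1 (5469 to 5665 CPM) and lowest in shTMLHE 2 (1703 to 1718 CPM).

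HMGA2 (ENSG00000149948, chr12:65824131-65966295, plus strand) was counted 25, 21 and 34 times in the shTMLHE 1 libraries, 113, 120 and 91 times in shTMLHE 2, 8, 3 and 7 times in CCNE1, and 14, 11 and 20 times in control. On the CPM scale this was 1.37, 1.16 and 2.06 in shTMLHE 1, 4.64, 5.65 and 5.10 in shTMLHE 2, 0.597, 0.165 and 0.443 in CCNE1, and 0.976, 0.872 and 1.66 in control. Every CCNE1 library was below every library of the other groups, every shTMLHE 2 library was above them, and shTMLHE 1 overlapped control. These readings chose the gene. As a description, the log2 fold change was -1.57 ± 0.47 (SE) for CCNE1 minus control, a level 2.97-fold lower. It was 1.96 ± 0.44 for shTMLHE 1 minus CCNE1, 3.90-fold higher, and 3.71 ± 0.40 for shTMLHE 2 minus CCNE1, 13.1-fold higher. All 3 comparisons share the CCNE1 libraries, which together held 18 counts (0.402 ± 0.219 CPM), so the folds against them rest on few reads.

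The comparison that did not choose HMGA2 is that between the hairpins. HMGA2 was 3.36-fold lower in shTMLHE 1 than in shTMLHE 2 (log2 fold change -1.75 ± 0.32), and the difference passed edgeR's quasi-likelihood test with Benjamini-Hochberg adjustment over all tested genes (adjusted p = 1.26e-05), with the 3 libraries of each group apart. With 1 library left out at a time it lay between -2.02 and -1.58. GC content runs along with these comparisons. The longest HMGA2 transcript is 38.8% GC, and the 1537 tested genes of 38.7 to 41.3% GC had median log2 fold changes of 0.38 for CCNE1 minus control, 0.38 for shTMLHE 1 minus CCNE1, 0.89 for shTMLHE 2 minus CCNE1 and -0.49 between the hairpins. After removal of the GC and length trend, HMGA2 stood at -2.04, 1.33, 2.49 and -1.15 in those comparisons, and the last kept an adjusted p of 0.00293 in edgeR. That removal used the GC and length of each gene's longest transcript, 8094 bases for HMGA2. It need not be the principal transcript searched for seed matches, nor the isoform these cells express. Of its exon bases, 2.49% are shared with the antisense gene AC090673.1, which had 0 to 3 counts per library.

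HMGA1 (ENSG00000137309, chr6:34236873-34246231, plus strand), the abundant AT-hook protein of proliferating cells, moved the other way. It had 2537, 2490.2 and 2593 CPM in shTMLHE 1, 1703, 1718 and 1712 CPM in shTMLHE 2, 5597, 5469 and 5665 CPM in CCNE1, and 5034, 5199.9 and 5200.1 CPM in control. No 2 groups overlapped. It fell with both hairpins, by 1.13 ± 0.03 on the log2 scale in shTMLHE 1 (2.20-fold lower, adjusted p = 5.24e-31) and by 1.70 ± 0.03 in shTMLHE 2 (3.26-fold lower, adjusted p = 1.02e-36). With CCNE1 it was 1.08-fold higher than in control, a log2 fold change of 0.12 ± 0.03 (adjusted p = 2.26e-04). HMGA1 took 0.278 to 0.287% of all counts in shTMLHE 1, 0.208 to 0.211% in shTMLHE 2, 0.463 to 0.483% in CCNE1 and 0.435 to 0.447% in control. Total-count scaling left both falls, at -0.74 and -1.18.

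GC content ran along with HMGA1 too. The longest HMGA1 transcript is 61.3% GC, and the 1537 tested genes of 58.4 to 61.7% GC had median log2 fold changes of -0.29 for shTMLHE 1 and -0.88 for shTMLHE 2 against CCNE1. After that trend was taken out, HMGA1 was at -0.58 with shTMLHE 1 (adjusted p = 1.52e-22) and at -0.56 with shTMLHE 2 (adjusted p = 2.51e-22). In the main edgeR fit, HMGA1 was 0.57 ± 0.03 higher on the log2 scale in shTMLHE 1 than in shTMLHE 2 (adjusted p = 1.83e-21), but without the GC and length trend the difference was -0.02 (adjusted p = 0.644). HMGA1 has pseudogene copies, and the 8 genes named as such in the table together held 110 counts, 0.0156% of the 706990 counts of HMGA1. The treatment of reads that match several genes is unknown from these sources.

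The ratio of the HMGA genes showed how far apart they lie. Per kilobase, HMGA1 exceeded HMGA2 by 8342 to 14191 times in shTMLHE 1, 2011 to 2427 times in shTMLHE 2, 62013 to 219371 times in CCNE1 and 20788 to 39462 times in control. The lengths are the exon bases of all isoforms, 15403 for HMGA2 and 2327 for HMGA1. The longest single transcripts have 8094 and 2159 bases, so the size of the ratio depends on the annotation. The shTMLHE 2 libraries had the lowest ratios and the CCNE1 libraries the highest, with no overlap between any of the 4 groups. The denominator rests on 3 to 120 counts of HMGA2 per library. HMGA2 was chosen for being lower in CCNE1 than in control and both hairpin groups. The high ratios in CCNE1 thus follow in part from that choice and are a description.

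LIN28B (ENSG00000187772, chr6:104936616-105083332, plus strand) was near the limit of detection in these cells. It had 0, 2 and 0 counts in shTMLHE 1, 0, 1 and 0 in shTMLHE 2, 0 in each CCNE1 library and 0 in each control library. The 95% Poisson intervals were 0.00458 to 0.137 CPM in shTMLHE 1 and 0.000399 to 0.0879 CPM in shTMLHE 2, and the counts of 0 allow up to 0.0634 CPM in CCNE1 and 0.0768 CPM in control (3 counts over the group), for counting error alone. On the same interval as the hairpin groups, the upper limits were 0.0779 CPM in CCNE1 and 0.0945 CPM in control. It did not pass the low-count filter and was not tested. Its paralog LIN28A had 0, 0 and 0 counts in shTMLHE 1 and 1, 0 and 1 in shTMLHE 2, and 0 counts in each CCNE1 and control library. No difference in either LIN28 gene was detectable at this depth.

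IGF2BP1 (ENSG00000159217, chr17:48997412-49055650, plus strand), the fetal family member with the strongest ties to let-7, had 67.2, 65.3 and 59.4 CPM in shTMLHE 1, 125, 125 and 118 CPM in shTMLHE 2, 69.3, 75.1 and 76.8 CPM in CCNE1, and 134, 124 and 125 CPM in control. CCNE1 and shTMLHE 1 were low, control and shTMLHE 2 were high, and the low pair did not overlap the high pair. IGF2BP1 was 1.73-fold lower with CCNE1 than in control, a log2 fold change of -0.79 ± 0.06 (edgeR adjusted p = 1.10e-14). In shTMLHE 2 it rose 1.66-fold over CCNE1, at 0.73 ± 0.05 on the log2 scale (adjusted p = 3.75e-15). The value stayed between 0.40 and 1.26 under the alternatives run. In shTMLHE 1 the small difference from CCNE1, -0.21 ± 0.06 (adjusted p = 0.00199), turned to 0.19 (adjusted p = 0.00431) with total counts. It failed the test with upper quartile scaling (adjusted p = 0.0653), so its direction depends on the scaling. Between the hairpins IGF2BP1 was 1.92-fold lower in shTMLHE 1, at -0.94 ± 0.05 on the log2 scale (adjusted p = 5.57e-18).

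IGF2BP2 (ENSG00000073792, chr3:185643739-185825056, minus strand), the family member that stays on in adult tissue and was linked to type 2 diabetes by genetics, showed another pattern. It had 128, 133 and 130.2 CPM in shTMLHE 1, 47.8, 39.7 and 46.8 CPM in shTMLHE 2, 132, 126 and 131 CPM in CCNE1, and 109, 105 and 109.9 CPM in control. The shTMLHE 2 libraries stood far below all the others. IGF2BP2 was 1.20-fold higher with CCNE1 than in control, a log2 fold change of 0.26 ± 0.05 (adjusted p = 9.91e-05, edgeR). It fell 2.89-fold in shTMLHE 2 relative to CCNE1, by 1.53 ± 0.06 on the log2 scale (adjusted p = 7.45e-25), and total counts left it at -1.004. In shTMLHE 1 the log2 difference from CCNE1 was 0.01 ± 0.05 (adjusted p = 0.886), or 0.40 with total counts (adjusted p = 1.37e-08). Between the hairpins it was 2.91-fold higher in shTMLHE 1, at 1.54 ± 0.06 on the log2 scale (adjusted p = 2.16e-24).

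IGF2BP3 (ENSG00000136231, chr7:23310209-23470467, minus strand), an oncofetal marker of aggressive carcinomas, was counted 6, 8 and 4 times in shTMLHE 1, 53, 33 and 35 times in shTMLHE 2, 14, 8 and 16 times in CCNE1, and 2, 8 and 2 times in control. In CPM it averaged 0.338 ± 0.101, 1.90 ± 0.317, 0.833 ± 0.341 and 0.313 ± 0.279 in those groups (SD, n = 3 each). shTMLHE 2 stood clear of the other groups, and IGF2BP3 passed the filter on low counts through that group. Its differences from shTMLHE 2 are therefore given as a description, with no test. The log2 fold change was -2.46 ± 0.54 for shTMLHE 1 minus shTMLHE 2, 5.50-fold lower, and 1.21 ± 0.49 for shTMLHE 2 minus CCNE1, 2.31-fold higher. After removal of the GC and length trend these were -1.93 and 0.38. Without CCNE1 replicate 2, the difference of shTMLHE 2 from CCNE1 was 0.88.

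The IGF2BP3 comparisons without shTMLHE 2 missed the threshold in edgeR, though some refits passed it. CCNE1 minus control was 1.39 ± 0.63 on the log2 scale (adjusted p = 0.0737), or 2.38 when control replicate 2 was left out (adjusted p = 0.0164) and 1.71 when CCNE1 replicate 2 was (adjusted p = 0.0308). Leaving out any other single library gave 1.01 to 1.20 (adjusted p = 0.171 to 0.258). Removal of the GC and length trend gave 1.01 (adjusted p = 0.230). shTMLHE 1 minus CCNE1 was -1.25 ± 0.59 (adjusted p = 0.0644), or -1.58 without CCNE1 replicate 2 (adjusted p = 0.0238) and -1.55 after removal of the GC and length trend (adjusted p = 0.0247). Without any other single library it was -1.49 to -1.06 (adjusted p = 0.0755 to 0.174). With total counts it was -0.86 (adjusted p = 0.196). MALSU1 on the opposite strand shares 17.9% of the exon bases of IGF2BP3, and it had 18.9 ± 3.10 CPM in shTMLHE 1, 23.4 ± 0.843 in shTMLHE 2, 24.0 ± 2.15 in CCNE1 and 26.4 ± 1.29 in control. Whether counting used strand is unknown from these sources, so the IGF2BP3 counts are uncertain.

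Taken per kilobase of exon, the IGF2BP family changed in make-up more than in sum. The sum of the 3 genes was 34.6 ± 0.664 CPM per kilobase in shTMLHE 1, 23.1 ± 0.888 in shTMLHE 2, 35.6 ± 0.571 in CCNE1 and 36.8 ± 0.920 in control. IGF2BP1 made up 20.3 ± 1.12% of it in shTMLHE 1, 58.2 ± 2.90% in shTMLHE 2, 22.7 ± 1.20% in CCNE1 and 38.0 ± 1.06% in control. The ratio of IGF2BP2 to IGF2BP1 was 3.67, 3.92 and 4.21 in the shTMLHE 1 libraries, 0.738, 0.612 and 0.762 in shTMLHE 2, 3.66, 3.24 and 3.27 in CCNE1, and 1.55, 1.64 and 1.70 in control. The ratio does not depend on the scaling of the libraries. shTMLHE 2 was the group in which IGF2BP1 exceeded IGF2BP2, and control lay between it and the other groups, with shTMLHE 1 and CCNE1 meeting at 3.67 and 3.66. IGF2BP3 was at most 1.06% of the sum in any library. Unlike the ratio, the sum depends on the scaling of the libraries. On total counts, IGF2BP1 and IGF2BP2 had 71.3 and 145 CPM in shTMLHE 1, against 62.6 and 110 CPM in CCNE1. The sum was then higher in shTMLHE 1 than in CCNE1. In shTMLHE 2 the total-count values were 150 and 54.8 CPM.

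**Figure D3:**
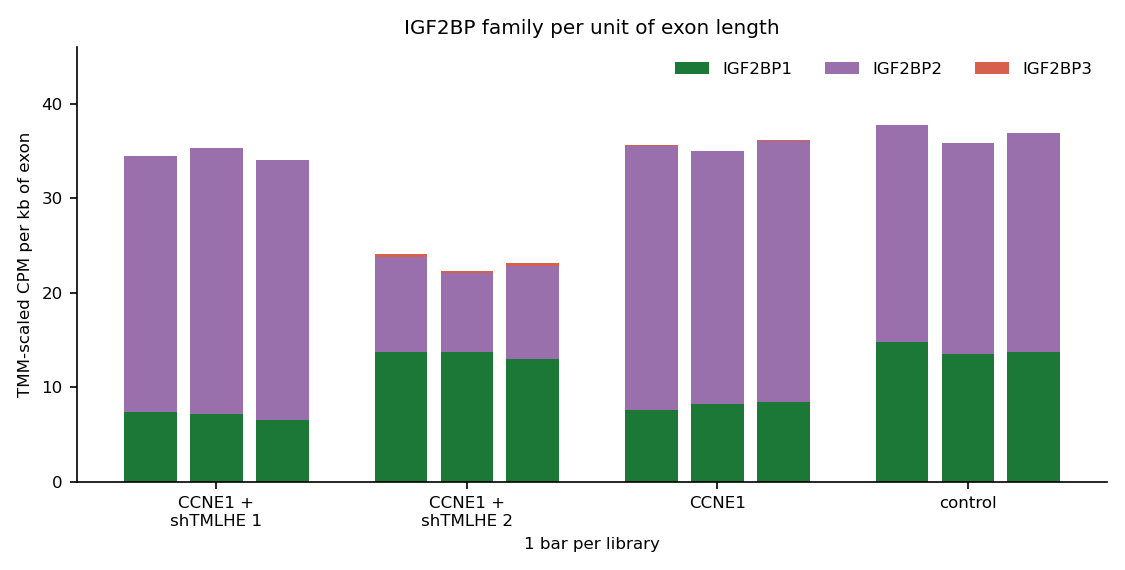
Stacked TMM-scaled CPM per kilobase of exon of IGF2BP1, IGF2BP2 and IGF2BP3, with 1 bar per library and 3 bars per group. IGF2BP2 makes up most of the sum in shTMLHE 1, CCNE1 and control, while IGF2BP1 makes up 56.2 to 61.5% of it in the 3 shTMLHE 2 libraries.

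MYC (ENSG00000136997, chr8:127735434-127741434, plus strand), whose mRNA is stabilised by the IGF2BP proteins, had 118, 121 and 112 CPM in shTMLHE 1, 117, 122 and 106 CPM in shTMLHE 2, 155, 151 and 151 CPM in CCNE1, and 168, 197 and 180.2 CPM in control. The hairpin groups overlapped each other and lay below CCNE1, which lay below control. MYC was 1.19-fold lower with CCNE1 than in control, a log2 fold change of -0.25 ± 0.05 (edgeR adjusted p = 1.15e-04), which became, without the GC and length trend, -0.09 (adjusted p = 0.148). Against CCNE1 it was 1.30-fold lower in shTMLHE 1 (-0.38 ± 0.05, adjusted p = 4.43e-08) and 1.32-fold lower in shTMLHE 2 (-0.41 ± 0.05, adjusted p = 5.83e-09). Total-count scaling reversed both, to 0.01 (adjusted p = 0.842) and 0.12 (adjusted p = 0.0302), and removal of the GC and length trend gave -0.13 (adjusted p = 0.0189) and 0.11 (adjusted p = 0.0483). On total counts MYC had 132, 135 and 124 CPM in shTMLHE 1, 142, 149 and 130.2 CPM in shTMLHE 2, and 131, 128 and 129 CPM in CCNE1. The direction of MYC with the hairpins was thus not settled by these counts. Between the hairpins the log2 difference was 0.02 ± 0.05 (adjusted p = 0.706), but without the GC and length trend it was -0.24 and passed the test (adjusted p = 5.76e-05).

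**Figure D4:**
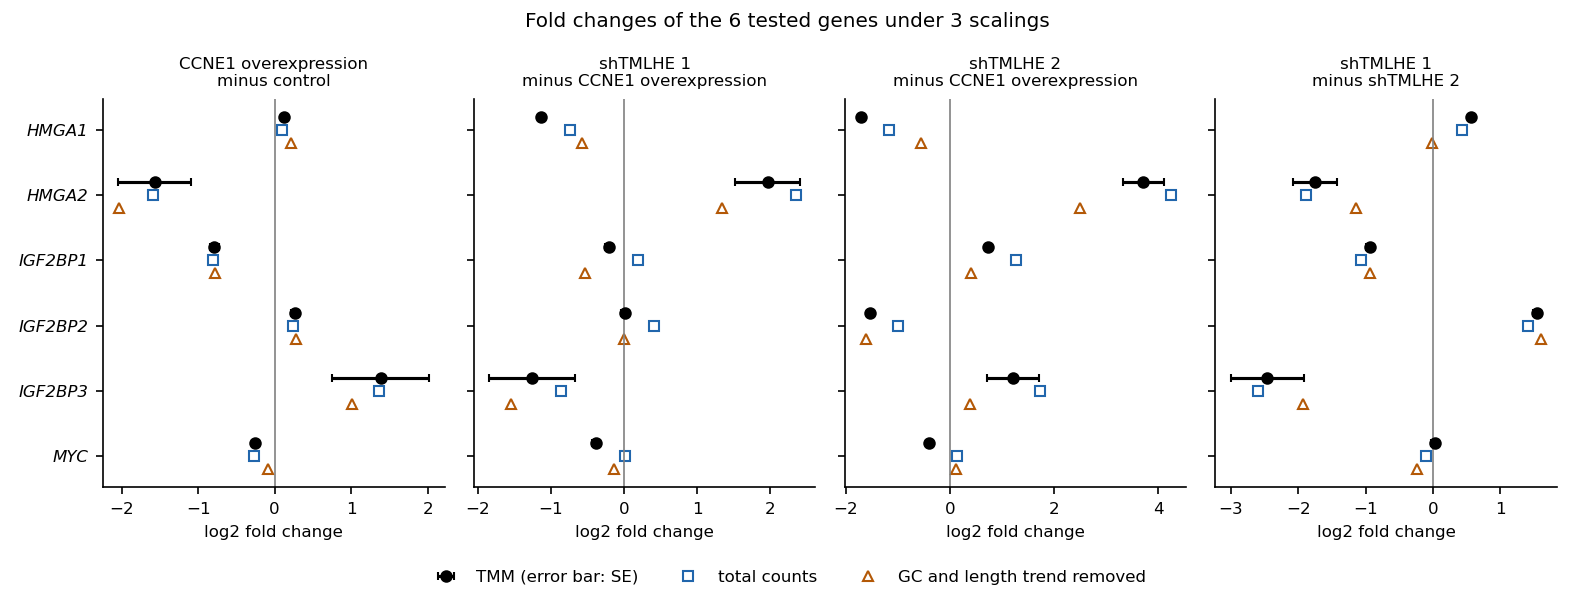
Log2 fold changes of the 6 tested genes in 4 comparisons, with TMM scaling (filled circles, error bars are SE), with total counts (open squares) and after removal of the GC and length trend (open triangles). HMGA2 was chosen for its direction in the first 3 panels and is shown there without a test. Depending on the scaling, MYC and IGF2BP1 cross 0 for shTMLHE 1 minus CCNE1. MYC also crosses 0 for shTMLHE 2 minus CCNE1, and HMGA1 and MYC do so between the hairpins.

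Set against the background, changed genes were common. Leaving HMGA2 aside, 4 of the 5 tested members passed for CCNE1 minus control (2 higher, 2 lower), where 44.2% of all 15378 tested genes passed. For shTMLHE 1 minus CCNE1, 3 of 5 passed, all lower, against 60.7% of all genes. With total counts the 3 were 2 higher and 1 lower. For shTMLHE 2 minus CCNE1, 5 of 5 passed (2 higher, 3 lower), against 73% of all genes. With total counts these were 3 higher and 2 lower. For shTMLHE 1 minus shTMLHE 2, 5 of 6 passed with HMGA2 included (2 higher, 3 lower), against 60.3% of all genes. The counts with shTMLHE 2 include IGF2BP3, which was tested because it was high there, and they say nothing particular of the members. The groups did not overlap in 47.2%, 63.9%, 75.6% and 69.7% of all tested genes in the same order of comparisons.

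Genes whose profile over the 12 libraries was closest to that of each member were found by the root mean square difference of log2 CPM, after centring each gene on its mean, among the 11675 tested genes whose log2 CPM averaged 1 or more. HMGA2 was closest to PTX3, which encodes a secreted pattern-recognition protein, with a difference of 0.50 against 1.28 for the spread of HMGA2 itself. PTX3 had 5.03 CPM in shTMLHE 1, 13.0 in shTMLHE 2, 1.97 in CCNE1 and 3.57 in control. ZNF430 (0.58), BRWD3 (0.58), ZDBF2 (0.59) and GXYLT1 (0.61) followed, all higher in shTMLHE 2 than in every other group but, apart from ZDBF2 and ZNF430, not lower in CCNE1 than in control. HMGA1 ran closest to UQCRC1, a subunit of respiratory complex III, with a difference of 0.04 against a spread of 0.71, and UQCRC1 had 566 CPM in shTMLHE 1, 383 in shTMLHE 2, 1296 in CCNE1 and 1209 in control. The nearest genes were MCAM, a cell adhesion protein, for IGF2BP1 (0.13), ATG9A, an autophagy protein, for IGF2BP2 (0.08), C1GALT1, a glycosyltransferase, for IGF2BP3 (0.43) and AMZ2, a metallopeptidase, for MYC (0.06). With 4 groups and 12 libraries, many genes share a profile.

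Genes of the LIN28 and let-7 pathway were counted from a list. Of 17 tested genes that process or degrade let-7 and other miRNAs, 2 rose and 4 fell for CCNE1 minus control, with a median log2 fold change of -0.03 against 0.05 over all genes. For shTMLHE 1 minus CCNE1, 11 rose and 3 fell (median 0.36 against 0.03), and for shTMLHE 2 minus CCNE1, 12 rose and 3 fell (median 0.49 against 0.03). Of all tested genes, 30.4% rose and 30.3% fell with shTMLHE 1, and 36.8% rose and 36.2% fell with shTMLHE 2. Once the GC and length trend was taken out, the list medians were 0.21 and 0.13 against 0.07 and 0.02 over all genes. DICER1, which cuts miRNA precursors, had 25.9 ± 2.63 CPM in shTMLHE 1, 56.7 ± 2.82 in shTMLHE 2 and 10.3 ± 1.82 in CCNE1. It rose by 1.32 ± 0.12 (adjusted p = 2.11e-12) and 2.45 ± 0.11 (adjusted p = 2.19e-21) on the log2 scale with the hairpins in edgeR, or by 0.61 and 1.17 without the GC and length trend. AGO2, the slicing Argonaute, rose to 209.995 ± 5.47 CPM in shTMLHE 2, against 78.3 ± 2.18 CPM in CCNE1, a log2 fold change of 1.42, or 0.70 without that trend. TARBP2, a partner of DICER1, fell to 37.7 ± 2.88 CPM in shTMLHE 1, against 110.32 ± 3.26 CPM in CCNE1 (log2 -1.55 ± 0.06, adjusted p = 5.51e-23, or -0.93 without the trend). KHSRP, which aids maturation of the let-7 precursor, fell to 199 ± 3.77 CPM in shTMLHE 2, against 575 ± 14.5 CPM in CCNE1 (log2 -1.53 ± 0.04, adjusted p = 3.85e-31, or -0.71 without the trend). On total counts, the values of list genes against CCNE1 move by about the shift given above for all genes.

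A list of let-7 host transcripts had 6 tested genes. It also held CTDSP1, CTDSP2 and CTDSPL, phosphatase genes that host no let-7 gene, and the counts below include them. For CCNE1 minus control, 3 of the 6 rose and 1, CTDSP2, fell. For shTMLHE 1 minus CCNE1, 3 rose and 2 fell, the latter being CTDSP1 and CTDSP2. For shTMLHE 2 minus CCNE1, 2 rose, CTDSPL among them, and 3 fell, CTDSP1 and CTDSP2 among them. Of all tested genes, 25.1% rose and 19.1% fell with CCNE1, 30.4% and 30.3% with shTMLHE 1, and 36.8% and 36.2% with shTMLHE 2. MIRLET7BHG, the host of let-7a-3 and let-7b, rose with CCNE1 to 8.22 ± 1.07 CPM, against 4.37 ± 0.278 CPM in control (log2 0.91 ± 0.19, adjusted p = 1.75e-04 in edgeR). CTDSP2, not a let-7 host, fell to 82.5 ± 1.96 CPM in shTMLHE 1, against 288 ± 9.77 CPM in CCNE1 (log2 -1.80 ± 0.04, adjusted p = 7.73e-31 in edgeR). A host transcript is not a measure of the mature miRNA.

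Of 23 tested genes commonly listed as let-7 targets, other than the members, 11 rose and 3 fell for CCNE1 minus control, where 25.1% of all genes rose and 19.1% fell. With the hairpins 13 rose and 6 fell in shTMLHE 1, where 30.4% and 30.3% of all genes did, and 18 rose and 3 fell in shTMLHE 2, where 36.8% and 36.2% did. The median log2 fold changes were 0.30, 0.69 and 0.77, and 0.11, 0.25 and 0.45 without the GC and length trend, against -0.03, 0.07 and 0.02 over all genes. CDK6, a G1 kinase, rose to 94.0 ± 5.07 CPM in shTMLHE 2, against 11.6 ± 2.13 CPM in CCNE1 (log2 3.01 ± 0.10, adjusted p = 4.02e-26), with 1.72 left after the GC and length trend. THBS1, an extracellular matrix glycoprotein, rose in all 3 comparisons, by 1.35 ± 0.05, 0.99 ± 0.04 and 1.61 ± 0.04, the last being 1.02 without the trend. CCND1, which encodes cyclin D1, rose by 0.81 ± 0.04 with CCNE1 and by 1.20 ± 0.04 with shTMLHE 1 (adjusted p = 1.13e-26). NRAS went against these, with 21.5 ± 1.76 CPM in shTMLHE 1, against 106 ± 2.03 CPM in CCNE1 (log2 -2.29 ± 0.08, adjusted p = 4.21e-19). All of these are edgeR values.

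Seed matches were also set against the change of all genes. The 1294 tested genes with at least 1 match had a median log2 fold change of 0.15 for shTMLHE 1 minus CCNE1 and 0.31 for shTMLHE 2 minus CCNE1, against 0.02 and -0.0030 for the 11763 genes with none. Without the GC and length trend these medians were -0.06 and -0.05, against 0.05 and -0.01. For CCNE1 minus control the medians were 0.08 with a match and 0.06 without, and -0.04 and -0.02 after removal of the trend. Genes with a match had 3′ UTRs of 2845.5 bases at the median, against 980.0 for genes without.

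Other oncofetal genes changed in both directions. Of 12 tested, 2 rose and 4 fell for CCNE1 minus control (median -0.01), 3 rose and 4 fell for shTMLHE 1 minus CCNE1 (median 0.01), and 7 rose and 5 fell for shTMLHE 2 minus CCNE1 (median 0.92, or 0.48 without the GC and length trend). In the same comparisons 25.1%, 30.4% and 36.8% of all genes rose, and 19.1%, 30.3% and 36.2% fell. MDK, the heparin-binding growth factor midkine, fell with CCNE1 to 22.1 ± 1.81 CPM, against 103 ± 1.36 CPM in control (log2 -2.22 ± 0.08, adjusted p = 6.32e-23, edgeR). It fell further in shTMLHE 1, to 11.8 ± 1.27 CPM against 22.1 ± 1.81 CPM in CCNE1, by 0.90 ± 0.10 on the log2 scale, or by 0.12 without the GC and length trend. PLAGL1, an imprinted zinc finger gene, had 55.3 ± 0.527 CPM in shTMLHE 2, against 17.8 ± 0.332 CPM in CCNE1 (log2 1.63 ± 0.09, or 0.71 without the trend). PEG10, another imprinted gene, had 196 ± 2.02 CPM in shTMLHE 2, against 91.7 ± 2.28 CPM in CCNE1 (log2 1.10 ± 0.04, or 0.50 without the trend). CD24, a surface glycoprotein, fell to 86.1 ± 3.69 CPM in shTMLHE 1, against 204 ± 5.29 CPM in CCNE1 (log2 -1.25 ± 0.05). IGF2 and H19, the classic cargoes of the IGF2BP family, did not pass the low-count filter.

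Among 12 other high-mobility-group genes, 5 rose and 1 fell for CCNE1 minus control, 4 rose and 6 fell for shTMLHE 1 minus CCNE1, and 4 rose and 4 fell for shTMLHE 2 minus CCNE1. The shares of all genes that rose were 25.1%, 30.4% and 36.8%, and those that fell 19.1%, 30.3% and 36.2%. HMGB1, a chromatin protein released as an alarmin, rose with CCNE1 to 220.5 ± 9.93 CPM, against 115 ± 6.80 CPM in control (log2 0.94 ± 0.05, adjusted p = 2.19e-19 in edgeR, or 0.47 without the GC and length trend). HMGB2, its proliferation-linked paralog, rose to 154 ± 4.26 CPM, against 88.8 ± 4.93 CPM in control. HMG20B, a subunit of a histone demethylase complex, fell to 104 ± 1.28 CPM in shTMLHE 2, against 379.5 ± 9.10 CPM in CCNE1 (log2 -1.86 ± 0.04, adjusted p = 4.46e-33, or -0.48 without the trend). HMGN3, a nucleosome-binding protein, rose to 39.4 ± 3.28 CPM in shTMLHE 1 and 58.1 ± 2.33 CPM in shTMLHE 2, against 17.7 ± 2.81 CPM in CCNE1.

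The IGF2BP proteins read m6A and share granules with other RNA-binding proteins, so those genes were counted too. Of 18 genes that write, read or erase m6A, 10 rose and 3 fell for CCNE1 minus control, 8 rose and 4 fell for shTMLHE 1 minus CCNE1, and 12 rose and 5 fell for shTMLHE 2 minus CCNE1. All tested genes rose in 25.1%, 30.4% and 36.8% of cases and fell in 19.1%, 30.3% and 36.2%, for this list and the next. The median in shTMLHE 2, 0.46, became -0.33 without the GC and length trend, and that for CCNE1 minus control, 0.34, became -0.03. Of 20 IGF2BP partners and mRNA stability factors, 14 rose and 3 fell with CCNE1, 9 rose and 6 fell with shTMLHE 1, and 11 rose and 7 fell with shTMLHE 2, where the median of 0.29 became -0.09. The median of these genes with CCNE1, 0.28, became 0.06 without the trend. SYNCRIP, found with IGF2BP1 on MYC mRNA, rose with CCNE1 to 239.8 ± 5.52 CPM, against 132 ± 7.69 CPM in control, and DHX9, a helicase of the same complex, to 228 ± 2.62 CPM against 133 ± 6.31 CPM in control. SYNCRIP's log2 fold change of 0.87 was 0.35 without the GC and length trend. HNRNPC, an m6A-dependent reader, fell to 824 ± 37.6 CPM in shTMLHE 1 and 718 ± 14.3 CPM in shTMLHE 2, against 1343 ± 18.9 CPM in CCNE1, with log2 fold changes of -0.71 and -0.90, or -1.10 and -1.89 without the trend. RBM15B, an adaptor of the m6A writer, fell to 47.8 ± 0.870 CPM in shTMLHE 2, against 124 ± 3.62 CPM in CCNE1 (log2 -1.37 ± 0.05, adjusted p = 8.49e-25 in edgeR).

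MYC targets were counted next. Of 28 targets in ribosome biogenesis and metabolism, 17 rose and 5 fell for CCNE1 minus control (median 0.21), where 25.1% of all genes rose and 19.1% fell. With shTMLHE 1, 4 rose and 21 fell, where 30.4% of all genes rose and 30.3% fell, and the median was -0.55, or -0.16 with total counts, where the median of all genes was 0.43. With shTMLHE 2, 9 rose and 14 fell, where 36.8% and 36.2% of all genes did, and the median of -0.20 became 0.33 with total counts, against 0.56 for all genes. CDK4, a G1 kinase, fell to 145 ± 1.63 CPM in shTMLHE 1 and 118 ± 5.54 CPM in shTMLHE 2, against 483 ± 2.06 CPM in CCNE1 (log2 -1.73 ± 0.04 and -2.03 ± 0.04 in edgeR). SRM, spermidine synthase, fell with both, at -1.33 ± 0.05 and -1.68 ± 0.05, or -0.49 and -0.16 without the GC and length trend. SLC7A5, an amino acid transporter, rose with CCNE1 to 343 ± 16.7 CPM, against 156 ± 6.82 CPM in control. Of 16 genes of the MYC network, 3 rose and 5 fell with CCNE1, 6 rose and 3 fell with shTMLHE 1, and 6 rose and 7 fell with shTMLHE 2, where 25.1%, 30.4% and 36.8% of all genes rose and 19.1%, 30.3% and 36.2% fell. MXD3, a MAX partner that opposes MYC, fell to 44.6 ± 3.06 CPM in shTMLHE 1 and 12.0 ± 0.959 CPM in shTMLHE 2, against 83.5 ± 4.72 CPM in CCNE1, at -0.90 and -2.79 on the log2 scale, or -0.38 and -1.67 without the trend.

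HMGA2 is known as a TGF-beta-induced gene in mouse epithelial cells, so genes of that pathway were counted. Of 20 genes, 7 rose and 1 fell for CCNE1 minus control, 9 rose and 8 fell for shTMLHE 1 minus CCNE1, and 14 rose and 4 fell for shTMLHE 2 minus CCNE1 (median 0.69, or 0.51 without the GC and length trend), where 25.1%, 30.4% and 36.8% of all genes rose and 19.1%, 30.3% and 36.2% fell. The median for CCNE1 minus control, 0.24, was -0.01 without the GC and length trend. For shTMLHE 1 minus shTMLHE 2, 3 were higher and 11 lower, where 31.3% of all genes were higher and 29% lower, and the median of -0.47 was -0.15 without the GC and length trend. TGFBR2, the type II receptor, had 16.8 ± 1.12 CPM in shTMLHE 1 and 67.0 ± 0.576 CPM in shTMLHE 2 (log2 -1.99 ± 0.09, adjusted p = 1.30e-21 in edgeR). TGFB1, the ligand, fell with both hairpins, to 96.7 ± 2.04 CPM in shTMLHE 1 and 63.2 ± 1.57 CPM in shTMLHE 2, against 202 ± 7.42 CPM in CCNE1, at -1.06 and -1.67 on the log2 scale, or -0.59 and -0.51 without the trend.

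**Figure D5:**
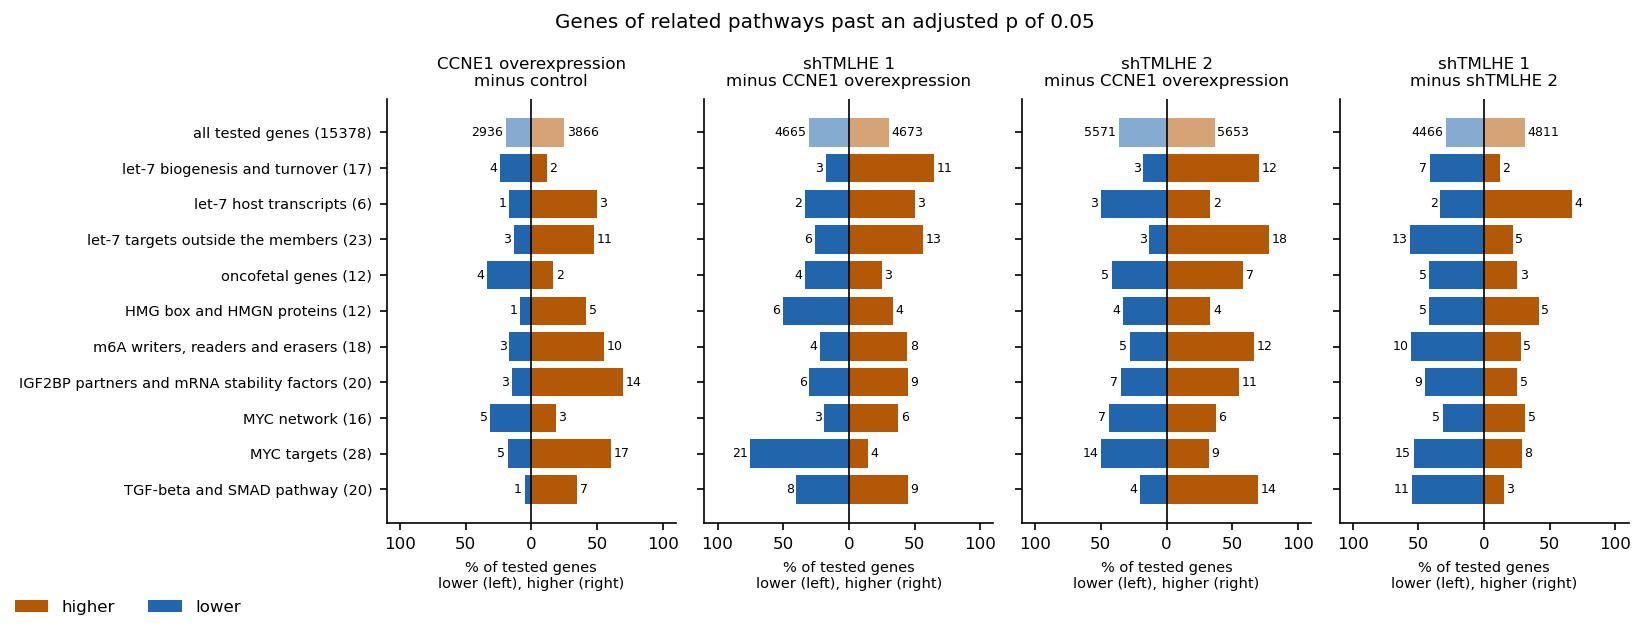
Share of the tested genes of each list that was higher (right) or lower (left) at an adjusted p under 0.05 in edgeR, in 4 comparisons, with the counts at the bar ends, the number tested in parentheses and all tested genes in the top row. In shTMLHE 2 minus CCNE1, 18 of 23 let-7 targets are higher, and in shTMLHE 1 minus CCNE1, 21 of 28 MYC targets are lower. The let-7 host list includes CTDSP1, CTDSP2 and CTDSPL, which host no let-7 gene.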

How the data were processed

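The counts deposited by the authors were whole-number counts per gene for 58735 genes. Per the submitters' processing notes, STAR 2.6.1, DESeq2 and the GRCh38 build were used; no source used here names the counting program or its strand setting. Deposited FPKM of the authors equalled counts per gene length and per a library size of 0.819 to 1.21 times the column total, and served in an alternative. Deposited gene lengths equalled GENCODE 29 exon lengths for 100% of genes.

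Counts were filtered with filterByExpr by group, which kept 15378 genes, scaled by TMM and tested with edgeR 4.0.16 (limma 3.58.1, R 4.3.3) by a robust quasi-likelihood fit of 1 mean per group over all 12 libraries (8 residual degrees of freedom). P-values were adjusted by Benjamini-Hochberg over all tested genes, with calls at an adjusted p under 0.05. CPM are mean ± SD, log2 fold changes carry their SE, and p-values measure the spread between these libraries, which may be technical. The fit was tested on simulated counts. Library depth was 14054101 to 21457503 counts.

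The members and the 10 lists of 181 genes were chosen with earlier results of these data known, so list counts and medians are descriptions. Of each list, up to 3 tested genes with the smallest p in each comparison could be named, and of the nearest profiles 5 for HMGA2 and 1 for each other tested member. Alternatives were RLE, upper quartile and total-count scaling, other filters, limma-voom, DESeq2 1.42.0, the compared groups fitted alone, a replicate block, removal of the GC and length trend, limma-trend with pseudocounts of 0.1 and 1 on the FPKM, an adjusted p under 0.01, and each library left out. Replicate pairs differed by more than sampling noise.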

Additional observations from a re-analysis of the deposited data

Results flagged for a closer look

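The hairpin groups differed in 5 of the 6 tested members, by the edgeR test of the difference itself, where 60.3% of all tested genes did. IGF2BP3 was tested because it was high in shTMLHE 2, so its value is a description. For shTMLHE 1 minus shTMLHE 2, the log2 fold change was 0.57 for HMGA1, -1.75 for HMGA2, -0.94 for IGF2BP1, 1.54 for IGF2BP2 and -2.46 for IGF2BP3. Without the GC and length trend these values were -0.02, -1.15, -0.93, 1.61 and -1.93, and the first no longer passed (adjusted p = 0.644), while MYC passed at -0.24 (adjusted p = 5.76e-05). The labels do not say that the libraries of a hairpin came from more than 1 transduced population. A difference between hairpins and a difference between populations thus cannot be told apart.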

How the results depend on the processing

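Counts of called genes and of called members stayed within 1.5 times of the main count under the alternatives run, the widest move being from 3 to 2 members for shTMLHE 1 minus CCNE1 with upper quartile scaling, as did the let-7 matches (15, or 11 with each gene's longest 3′ UTR). Leaving out 1 library at a time gave 6168 to 6500 called genes for CCNE1 minus control, 8629 to 9124 for shTMLHE 1 and 10661 to 11057 for shTMLHE 2 minus CCNE1, and 8437 to 8694 between the hairpins. Replicate numbers did not pair the libraries: deviations of same-numbered libraries correlated at -0.04 to 0.05, and in 2 of 12 comparisons was the own number the best. With the replicate block 6624, 9231, 11123 and 9125 genes were called, and no member's call changed. Directions reversed as follows, and the cause was not tested. With total counts, shTMLHE 1 minus CCNE1 was 0.19 for IGF2BP1 and 0.013 for MYC, shTMLHE 2 minus CCNE1 was 0.12 for MYC, and the hairpin difference of MYC was -0.11. Removal of the GC and length trend gave 0.11 for MYC in shTMLHE 2 minus CCNE1, and -0.015 for HMGA1 and -0.24 for MYC between the hairpins, the last passing the test. MYC between the hairpins was also -0.0146 with RLE, -0.00241 with upper quartile scaling and -0.0144 with DESeq2, and -0.029 to 0.065 with a library left out. IGF2BP2 in shTMLHE 1 minus CCNE1 was -0.0151 and -0.0146 with limma-trend on FPKM (pseudocounts 0.1 and 1) and -0.00892 to 0.023 with a library left out. On log2(FPKM + 1) HMGA2 shrank to -0.07, 0.10 and 0.38 in its first 3 comparisons, and on log2(FPKM + 0.1) to -0.49, 0.66 and 1.79, since a pseudocount hides the change of a low gene. With total counts 75.9% of calls for shTMLHE 1 and 70.7% for shTMLHE 2 against CCNE1 were higher, against 50.04% and 50.4% with TMM. HMGA2, IGF2BP3 and LIN28B are limited by depth, with single counts to 120 per library.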
